A study of Homo sapiens with 8 samples.

Results

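The genes described here are named for proteins of the cytosolic and mitochondrial ribosomes, of the respiratory chain with its ATP synthase, and of the proteasome. They were taken by name: every gene in any of 4 deposited peak lists whose name starts with RPL or RPS (S6 kinases left out), MRPL or MRPS, NDUF, COX and a digit, UQCR, ATP5, or PSMA to PSMD and a digit. The rule found 47 of the 6520 genes named in the lists, with 244 of their peaks, and all 47 are protein-coding genes of RefSeq. By subfamily, 8 were named for the cytosolic ribosome, 14 for the mitochondrial ribosome, 7 for complex I, 1 for complex III, 3 for complex IV, 5 for ATP synthase and 9 for the proteasome. Names are those of the lists. ATP5F1, ATP5G3, ATP5L, ATP5S, ATP5J2-PTCD1 and MRPS36 are now called ATP5PB, ATP5MC3, ATP5MG, DMAC2L, ATP5MF-PTCD1 and KGD4, so 2 of the 47, ATP5S and MRPS36, no longer carry a name of the rule.

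The series measured the RNA that came down with QKI7, an isoform of the RNA-binding protein Quaking. The cells were HepG2, a human liver cancer line, carrying Cas9 and a lentiviral Flag-tagged QKI7, and were exposed to UV and sonicated before the Flag antibody was used. The knockout cells had received a guide against METTL1 (sgMETTL1), an enzyme that places 7-methylguanosine on RNA, and the control cells a control guide (sgNS). Each guide had 2 replicates, each of an immunoprecipitated (IP) and an input sample, and all of them overexpressed QKI7, so the lists describe RNA held by the tagged transgene product. The labels do not say whether the knockout cells are a clone, or whether the replicates came from separate cultures, so the spread between replicates may be technical.

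There is 1 list of peaks for each IP sample and its input: 10095 and 9388 peaks with sgMETTL1 and 11562 and 11038 with sgNS. The fold of a peak is the authors' enrichment of IP over input, and its p-value is the authors' own. The reads behind them are not listed, so the depth of a value is unknown, and a gene with little RNA in the cells cannot be told apart from one that QKI7 did not hold. METTL1 had no peak in any list, which leaves the knockout unchecked here. Of 9 hepatocyte genes, 5 were listed, with SERPINA1, the gene of alpha-1-antitrypsin, at 17.0-fold and 15.2-fold with sgMETTL1 and 18.7-fold and 22-fold with sgNS. Of 6 genes of fibroblasts and blood cells, 1 (HBB) was listed, in replicate 1 of sgNS alone, at 30.1-fold.

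Ribosomes translate mRNA, mitochondrial ribosomes make the few respiratory chain proteins encoded in the mitochondrion, the respiratory complexes pump protons that drive ATP synthase, and the proteasome degrades ubiquitin-tagged proteins. Their mRNAs are mostly short, abundant and made in every cell. Those of the cytosolic ribosome carry a run of pyrimidines at the 5′ end, the terminal oligopyrimidine tract, through which mTOR signalling and LARP1 control their translation. Quaking proteins contain a KH domain, bind RNA at an ACUAA core with a nearby partner sequence, and are known for regulating the splicing, stability and translation of their targets. The peak sequences were not analysed here, so no motif is reported.

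The starts of 4 listed cytosolic ribosomal genes are shown because they carry that tract, and RPL37 is named only. These are RefSeq sequences of GRCh38.p14 in the direction of transcription, 20 bases before and 10 after the start, with the unbroken run of C and T over the start in capitals. RPL18 is at chr19:48619169-48619198 (minus strand), RPL22 at chr1:6199586-6199615 (minus), RPL27A at chr11:8682772-8682801 (plus) and RPL28 at chr19:55385912-55385941 (plus).
RPL18: cgcccaccccagcccgTTCTCTCTTTCCgg
RPL22: ctgcgtagttcgctcaCCTCCCTTTCTaac
RPL27A: gagacttggcgaaggCCTTCCTTTTTCgtc
RPL28: tcgcctcgcccctcgCCTTCCTCTTTCCgt
The runs were 12, 11, 12 and 13 bases long. A run of at least 8 C or T over the start, searched on the transcribed strand only, was present in 4 of these 4 genes and in 43 of 65 cytosolic ribosomal genes that were not listed (66.2%). It was present in 1 of 31 listed genes of the other subfamilies (3.23%) and in 991 of 15843 protein-coding genes with a start in the table (6.26%). None of the 244 peaks touched a promoter window, which runs from 250 bases before to 50 bases after a start, against 0.502% of the other peaks. No member's peak lay over these starts, and nothing about binding is read from the runs.

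Few genes of these machines had a QKI7 peak. RefSeq has 311 protein-coding genes with such names, and 46 of them had a peak in any list (14.8%), against 6473 of 20056 protein-coding genes (32.3%). These shares go by current names, which leave out ATP5S and MRPS36 and take in ATPIF1, now ATP5IF1. The share was 8 of 90 for the cytosolic ribosome (8.89%), 3 of 29 for complex IV (10.3%), 1 of 9 for complex III (11.1%), 7 of 46 for complex I (15.2%) and 13 of 77 for the mitochondrial ribosome (16.9%). The proteasome with 9 of 40 (22.5%) and ATP synthase with 5 of 20 (25%) had the highest shares, both under that of all protein-coding genes. Being listed is what chose these genes, so the shares are a description without a test. The listed genes are also the longer ones, with a median span of 14469 bases against 7105 for those not listed, and over all protein-coding genes these medians were 43684 and 17187 bases. Transcript levels were not measured in the lists, and the part of length and expression in the shares was not tested.

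**Figure D1:**
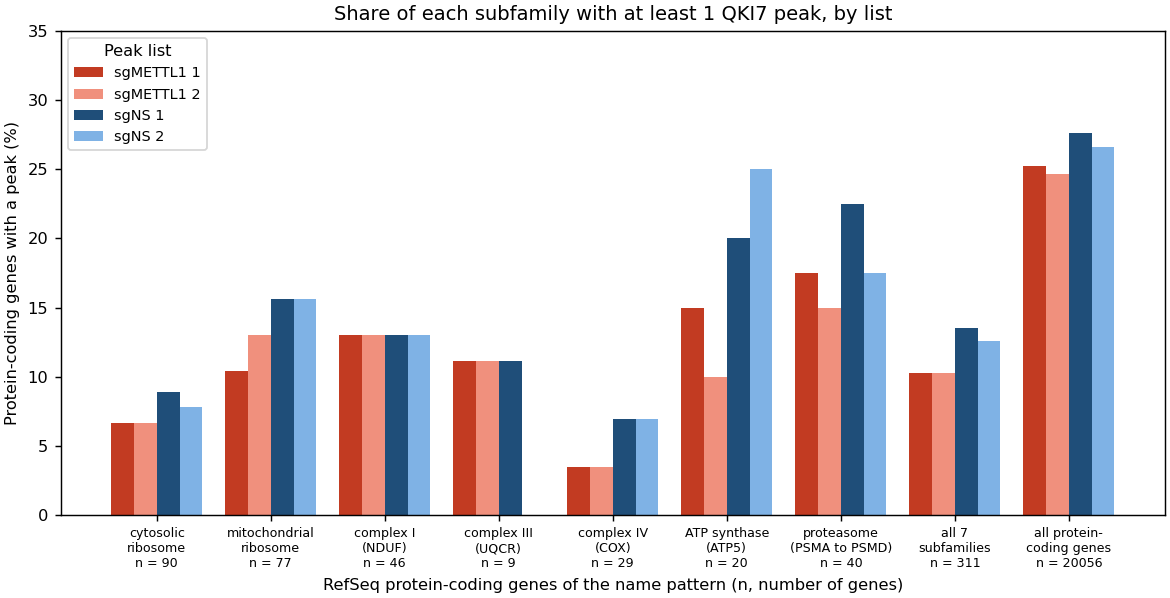
Share of RefSeq protein-coding genes with at least 1 peak (vertical axis, percent) for each subfamily, for all 7 together and for all protein-coding genes, with 1 bar for each list, sgMETTL1 in reds and sgNS in blues. All 7 subfamilies together stand at 10.3 and 10.3% with sgMETTL1 and 13.5 and 12.5% with sgNS, against 25.2, 24.7, 27.6 and 26.6% of all protein-coding genes.

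Of the 8 names of the cytosolic ribosome, 3 had no peak within a ribosomal protein gene. RPL17-C18orf32, RPL36A-HNRNPH2, RPS10-NUDT3 and, among the ATP5 names, ATP5J2-PTCD1 are read-through loci, in which a transcript runs from the ribosomal or ATP synthase gene into the next gene. All 16 of their peaks were listed a second time under that next gene (C18orf32, HNRNPH2, NUDT3 or PTCD1), and 0 of the 16 reached the span of RPL17, RPL36A, RPS10 or ATP5MF. These values are therefore uncertain between the names and lie on the downstream gene. Of 5 read-through loci of the name pattern 4 were listed, and of the other 87 cytosolic ribosomal genes 5 were (5.75%): RPL18, RPL22, RPL27A, RPL28 and RPL37. No peak of the remaining 43 members was listed under a further gene.

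RPL18, a protein of the large ribosomal subunit, had the most evidence and nearly the least enrichment. Its peak joined 3 exon blocks with 267 to 296 bases in all, within chr19:48615327-48616183 on the minus strand. The authors' fold was 1.97 and 1.81 with sgMETTL1, against 2.42 and 2.40 with sgNS. Its -log10 p was 200 and 177.0 with sgMETTL1, against 432.0 and 487.0 with sgNS, the highest of the cytosolic ribosomal names in each list. Fold and evidence were both lower in the 2 sgMETTL1 lists, without overlap between the guides. The median -log10 p of peaks outside the members was 7.42 and 7.96 with sgMETTL1, against 10.8 and 10.8 with sgNS. Lower evidence was thus general to the sgMETTL1 lists, and its part in the values of RPL18 was not tested. Of the 4150 genes of all 4 lists, 37.7% had both folds with sgMETTL1 under both with sgNS and 10.4% had them above, so a lower fold without overlap was common. RPL28, also of the large subunit, stood at 3.88-fold and 5.24-fold with sgMETTL1 and 7.58-fold and 3.80-fold with sgNS, at chr19:55391636-55392053, and here the guides overlapped.

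The other cytosolic ribosomal genes were listed less steadily. RPL22 and RPL37, both of the large subunit, had no peak with sgMETTL1, and with sgNS had 2.08-fold and 1.53-fold (RPL22) and 3.31-fold and 3.25-fold (RPL37). RPL27A, also of the large subunit, was named in both sgMETTL1 lists (2.97-fold and 5.55-fold) and in replicate 1 of sgNS (3.04-fold), but not at 1 common place. Its 5 peaks fell on 4 sites, and the site at chr11:8687268-8687448 was in both sgMETTL1 lists (2.97-fold and 2.31-fold) and in neither sgNS list. The -log10 p of its peaks was at most 5.36. Of the read-through loci, RPL17-C18orf32 stood at 12.1-fold and 9.12-fold with sgMETTL1 and 10.3-fold and 9.05-fold with sgNS. RPL36A-HNRNPH2 stood at 10.7-fold and 5.55-fold with sgMETTL1 and 6.52-fold and 8.55-fold with sgNS, and RPS10-NUDT3 at 2.90-fold and 2.62-fold with sgMETTL1 and 3.20-fold and 3.90-fold with sgNS.

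**Figure D2:**
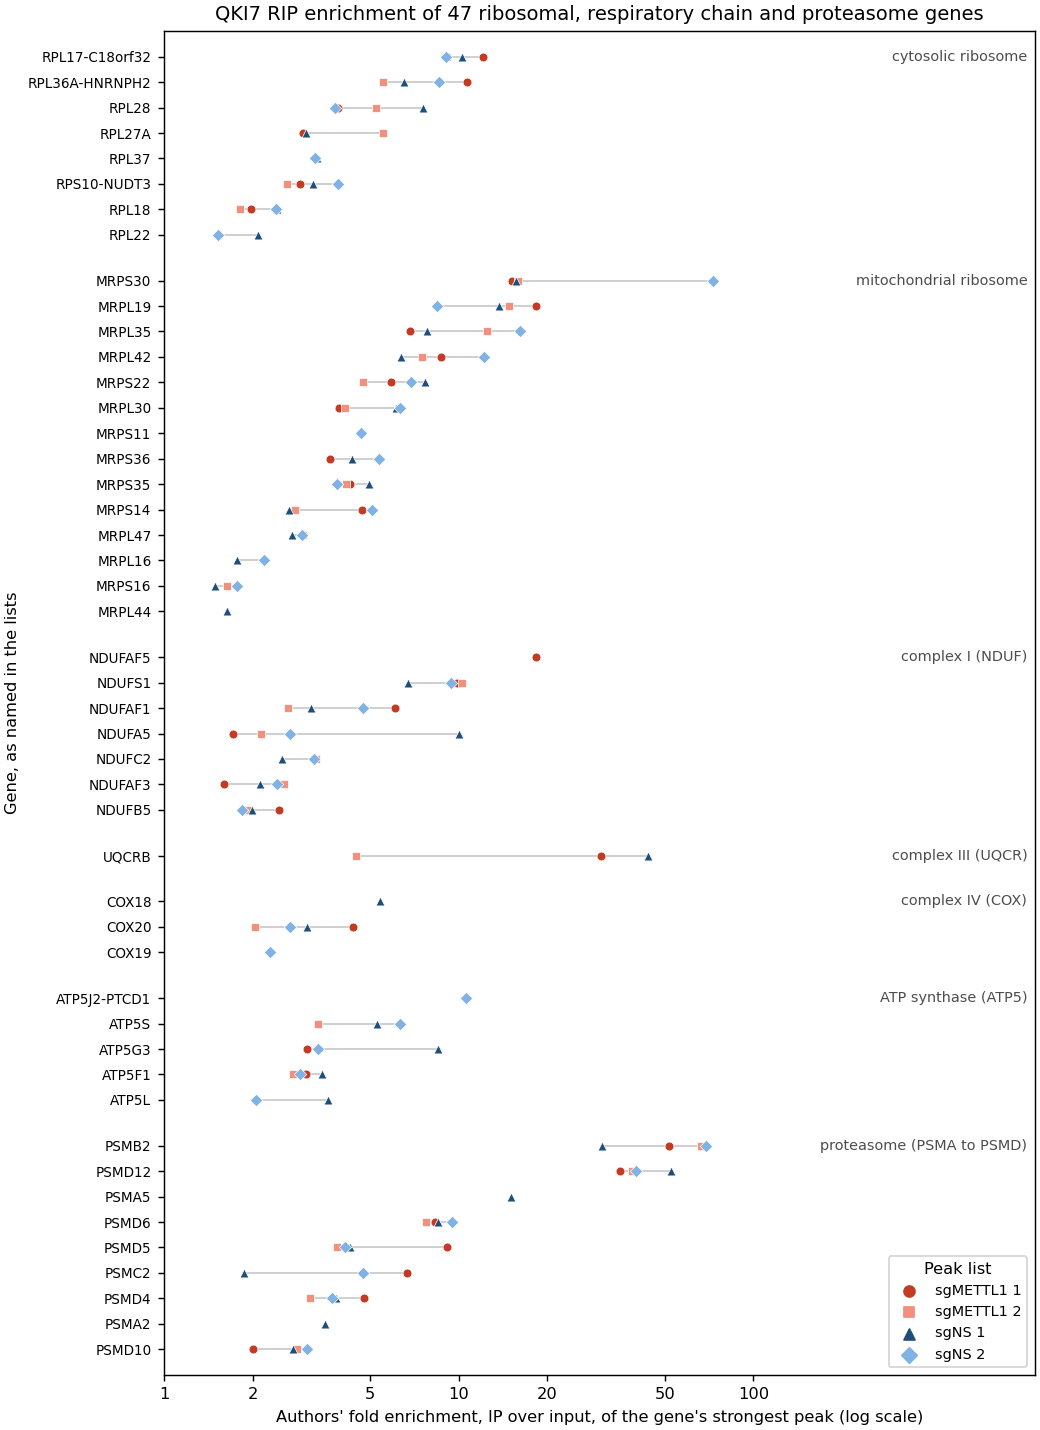
Authors' fold enrichment of IP over input for the strongest peak of each of the 47 genes (log axis), grouped by subfamily, with 1 point for each list that names the gene, sgMETTL1 in reds and sgNS in blues. PSMB2 and PSMD12 stand above 30 in all 4 lists, and MRPS30 stands at 73.2 in replicate 2 of sgNS alone.

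The mitochondrial ribosome supplied the most members and the ones with the most sites. MRPS30, a mitochondrial ribosomal protein gene, had 1 site at the very end of its gene (chr5:44815247-44815516, plus strand), at 15.2-fold and 15.9-fold with sgMETTL1 and 15.6-fold and 73.2-fold with sgNS. Replicate 2 of sgNS stood apart, and the other 3 lists lay close to each other. MRPL19, a protein of the large mitochondrial subunit, had 11 sites along chr2:75655401-75662208 and 12 and 5 peaks with sgMETTL1 against 6 and 11 with sgNS. Its strongest peak had 18.3-fold and 14.8-fold with sgMETTL1, against 13.7-fold and 8.41-fold with sgNS. Both sgMETTL1 values were above both sgNS values, but the strongest peak of replicate 2 of sgNS lay at another site than in the other 3 lists. At that other site, also in all 4 lists (chr2:75657081-75657800), the folds were 6.10 and 6.06 with sgMETTL1 against 7.40 and 8.41 with sgNS, and at chr2:75655401-75656721 they were 6.55 and 5.18 with sgMETTL1 against 6.80 and 6.80 with sgNS. These 2 of the 3 sites in all 4 lists were lower with sgMETTL1 without overlap, as were the folds of 37.7% of the genes of all 4 lists. Ranked within the lists, their score differences (sgMETTL1 minus sgNS) were -0.08 (SE 0.19) and 0.02 (SE 0.19), in the order named. At the third site, chr2:75660019-75661248, the difference was 0.68 (SE 0.30).

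MRPL42 and MRPL35, also of the large subunit, had 4 and 3 sites present in all 4 lists. The strongest peak of MRPL42 stood at 8.71-fold and 7.53-fold with sgMETTL1 and 6.37-fold and 12.2-fold with sgNS, and that of MRPL35 at 6.86-fold and 12.5-fold with sgMETTL1 and 7.79-fold and 16.2-fold with sgNS. For MRPL42 this peak lay at chr12:93503503-93503772 in replicate 1 of each guide and at chr12:93501889-93502606 in replicate 2. MRPL30 stood at 3.91-fold and 4.11-fold with sgMETTL1, against 6.11-fold and 6.31-fold with sgNS, without overlap (chr2:99195857-99196484). Of the small subunit, MRPS22 stood at 5.90-fold and 4.75-fold with sgMETTL1 against 7.71-fold and 6.88-fold with sgNS. MRPS35 stood at 4.28-fold and 4.15-fold with sgMETTL1 and 4.97-fold and 3.86-fold with sgNS, and MRPS14 at 4.71-fold and 2.78-fold with sgMETTL1 and 2.66-fold and 5.09-fold with sgNS. The MRPS14 folds came from different sites. At its site in all 4 lists, chr1:175014387-175014566, they were 4.43 and 2.78 with sgMETTL1 and 2.5 and 5.09 with sgNS. MRPL30 and MRPS22 had both sgMETTL1 folds under both sgNS folds, as 37.7% of the genes of all 4 lists did. The other 4 overlapped in their strongest peaks. In MRPL35 those peaks lay at different sites. At its site chr2:86210849-86211744 the folds were 4.32 and 4.28 with sgMETTL1 against 7.79 and 6.05 with sgNS. At chr2:86211863-86212340 they were 2.79 and 2.36 with sgMETTL1 against 3.42 and 3.51 with sgNS. The guides did not overlap at these sites, but did at chr2:86212907-86213354. There the folds were 6.86 and 12.5 with sgMETTL1 and 6.37 and 16.2 with sgNS.

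The remaining 6 genes named for the mitochondrial ribosome, with MRPS36 (now KGD4) among them, were each absent from at least 1 list. MRPL16, of the large subunit, had no peak with sgMETTL1 and 1.77-fold and 2.19-fold with sgNS. MRPL47 and MRPS16 were missing from replicate 1 of sgMETTL1 and MRPS36 from replicate 2 of sgMETTL1. MRPL44 and MRPS11 were named in 1 sgNS list each, at 1.64-fold and 4.65-fold. Their folds ran from 1.49 (MRPS16) to 5.35 (MRPS36).

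Of complex I, which takes electrons from NADH, 5 of 7 genes were in all 4 lists. NDUFS1, its large iron-sulphur subunit, had a single wide site (chr2:206123079-206123972, minus strand) at 9.86-fold and 10.3-fold with sgMETTL1, against 6.73-fold and 9.45-fold with sgNS. NDUFA5, an accessory subunit, stood at 1.71-fold and 2.13-fold with sgMETTL1 and 10.0-fold and 2.68-fold with sgNS, so the replicates of sgNS differed more from each other than replicate 2 did from the sgMETTL1 lists. NDUFB5, also an accessory subunit, stood at 2.46-fold and 1.94-fold with sgMETTL1 and 1.99-fold and 1.84-fold with sgNS. The assembly factor NDUFAF1 stood at 6.10-fold and 2.64-fold with sgMETTL1 and 3.16-fold and 4.75-fold with sgNS, and the assembly factor NDUFAF3 at 1.60-fold and 2.56-fold with sgMETTL1 and 2.12-fold and 2.41-fold with sgNS. NDUFC2, an accessory subunit, was missing from replicate 1 of sgMETTL1, with 3.28-fold in replicate 2 and 2.51-fold and 3.22-fold with sgNS. NDUFAF5 was named in that list alone, at 18.3-fold with a -log10 p of 2.92, the one member found with sgMETTL1 and not with sgNS.

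UQCRB, a subunit of complex III, showed how little can lie behind a high fold. It was listed at 30.5-fold and 4.48-fold with sgMETTL1 and at 44.0-fold in replicate 1 of sgNS, and not in replicate 2. The -log10 p beside these folds was 5.16, 4.81 and 8.76, and the 4.48-fold peak lay at another site than the other two. By contrast, PSMD6 of the proteasome had a -log10 p of 160.0 to 247.0 at folds of 7.75 to 9.47. Complex IV, cytochrome c oxidase, was represented by assembly factors only. COX20, a chaperone for a core subunit, stood at 4.38-fold and 2.04-fold with sgMETTL1 and 3.05-fold and 2.68-fold with sgNS, but these folds come from different sites. At the site chr1:244843390-244843629, in all 4 lists, the folds were 1.89 and 1.83 with sgMETTL1 against 3.05 and 2.68 with sgNS, and at chr1:244844794-244845033 they were 4.38 and 2.04 with sgMETTL1 against 2.95 and 2.31 with sgNS. In a fit of the 6003 sites of all 4 lists, added after seeing the data, the first was the one member site of 37 with an unadjusted p under 0.05, against 628 of all sites. Its difference in rank score was -0.57 (SE 0.18, unadjusted p = 0.0259 and adjusted p = 0.425 by limma). COX18 (5.40-fold) and COX19 (2.29-fold) were in 1 sgNS list each.

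Of ATP synthase, ATP5F1, the gene of a peripheral stalk subunit, stood at 3.03-fold and 2.74-fold with sgMETTL1 and 3.44-fold and 2.89-fold with sgNS (chr1:111461164-111461371, plus strand). ATP5S, named for a coupling factor, stood at 3.34-fold and 3.33-fold with sgMETTL1, against 5.29-fold and 6.34-fold with sgNS (chr14:50325901-50326228, plus strand). The guides did not overlap, and 37.7% of the genes of all 4 lists were likewise lower in fold with sgMETTL1 without overlap. ATP5L, the gene of a subunit of the membrane part, had no peak with sgMETTL1 and 3.6-fold and 2.05-fold with sgNS. ATP5G3, a gene of the c ring, had 3 sites and none in more than 2 lists, with 3.05-fold in replicate 1 of sgMETTL1 against 8.49-fold and 3.32-fold with sgNS. The read-through locus ATP5J2-PTCD1 was named in replicate 2 of sgNS alone, at 10.6-fold.

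The proteasome held the most enriched genes. PSMB2, a subunit of the catalytic core particle, stood at 51.8-fold and 66.6-fold with sgMETTL1 and 30.7-fold and 69.0-fold with sgNS, in a site that reached the 3′ end of its gene (chr1:35599541-35600466, minus strand). Farther upstream a site of 1343 to 1522 bases (chr1:35601629-35603150) had lower folds, 18.2 and 21.5 with sgMETTL1 and 22.5 and 20.1 with sgNS, and far higher evidence, with a -log10 p of 332.0 and 331.0 with sgMETTL1 and 433.0 and 465.0 with sgNS. PSMD12, of the lid of the regulatory particle, stood at 35.4-fold and 38.6-fold with sgMETTL1 and 52.7-fold and 40.0-fold with sgNS, over chr17:67338065-67342245 (minus strand). Both genes ranked within the top 11% of the genes of every list, and the guides overlapped in fold for PSMB2, while for PSMD12 both folds with sgMETTL1 lay under both with sgNS.

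The other proteasome genes were lower. PSMD6, also of the lid, stood at 8.32-fold and 7.75-fold with sgMETTL1 and 8.50-fold and 9.47-fold with sgNS. PSMD5, an assembly chaperone, stood at 9.14-fold and 3.86-fold with sgMETTL1 and 4.28-fold and 4.10-fold with sgNS, and PSMD4, a ubiquitin receptor, at 4.76-fold and 3.14-fold with sgMETTL1 and 3.84-fold and 3.72-fold with sgNS. PSMD10, the assembly chaperone gankyrin, stood at 2.01-fold and 2.83-fold with sgMETTL1 and 2.73-fold and 3.06-fold with sgNS. PSMC2, an ATPase of the base, was named in 3 lists, at 6.70-fold in replicate 1 of sgMETTL1 and 1.87-fold and 4.75-fold with sgNS. These PSMC2 folds came from different sites. The sgNS peaks lay at chr7:103368084-103368203, where no sgMETTL1 peak was listed. The 6.70-fold peak lay at chr7:103368233-103368412, where no sgNS peak was listed. PSMA2 (3.53-fold) and PSMA5 (15.0-fold), of the outer rings of the core, were in replicate 1 of sgNS alone.

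**Figure D3:**
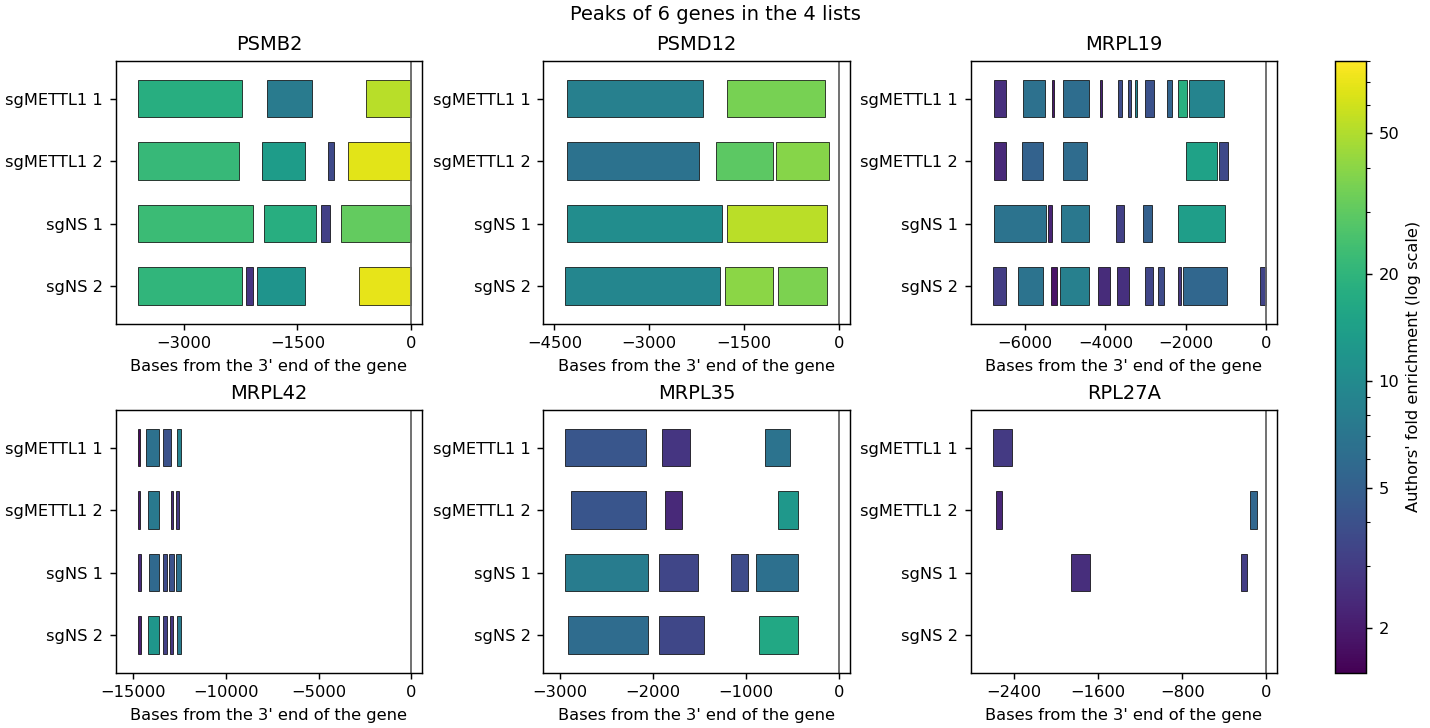
Peaks of 6 genes, chosen after their values were seen, in each list, placed by their distance in bases from the 3′ end of the RefSeq gene (0 at the right), as bars from the start to the end of the peak with introns included, and coloured by the authors' fold (log scale). PSMB2, PSMD12, MRPL42 and MRPL35 have 2 to 5 bars a list over much the same stretches, split or joined differently between lists and with some bars missing from a list, and MRPL19 has 5 to 12 bars. The bars of RPL27A share 1 place between the sgMETTL1 lists. Its other bars lie at different places, within a guide as between guides, and replicate 2 of sgNS has no bar.

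Set beside all other peaks of the same list, the peaks of these genes were slightly narrower and weaker. The median width over exon blocks was 237, 234, 240 and 240 bases (sgMETTL1 replicates 1 and 2, then sgNS replicates 1 and 2), against 240, 241, 270 and 270 bases for the other peaks. The median fold was 4.38, 3.63, 3.57 and 3.58, against 4.47, 4.44, 4.6 and 4.33. As a percentile within the list, where 0 is the strongest fold and the narrowest width, the members' median was 57.1 ± 4.16 for fold and 45.3 ± 1.68 for width (SD over the 4 lists). A fold of at least 10 was held by 15.8, 17.6, 15.7 and 13.6% of their peaks, against 23.7, 23.6, 25.4 and 23.2% of the others. Peaks of 2 or more exon blocks made up 5.88 to 9.09% of the members' peaks and 9.09 to 9.52% of the others.

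Ranked by gene, the distance was wider. The strongest peak of a member had a median percentile of 64.1, 69.3, 71.4 and 72.4 among the genes of its list, where the other genes had 49.7, 50.1, 49.9 and 49.8. The strongest 25% of genes held 5 of 33 and 3 of 32 members with sgMETTL1 (15.2 and 9.38%) and 3 of 43 and 3 of 40 with sgNS (6.98 and 7.5%), against 25.1 to 25.2% of the other genes. Members also had fewer peaks per gene, 1.73 and 1.59 with sgMETTL1 and 1.63 and 1.65 with sgNS, against 1.98, 1.89, 2.08 and 2.06 for other genes.

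The subfamilies did not behave alike. Peaks of the proteasome had a median fold percentile of 28.3 and 32.2 with sgMETTL1 and 40.8 and 24.8 with sgNS, and a median width percentile of 83.7, 81.7, 62.1 and 65.4, on the strong and wide side in every list. PSMB2 and PSMD12 have several peaks each, and by gene the median fold percentile of the proteasome was 43.2 and 57.3 with sgMETTL1 and 71.4 and 66.1 with sgNS, on the weak side in 3 of the 4 lists. Peaks of complex I stood at 59.3 and 77.3 with sgMETTL1 and 71.3 and 67.7 with sgNS for fold, and those of complex IV at 71.3, 89.7, 68.1 and 80.2. Counted over peaks, the mitochondrial ribosome was near the middle of the list, at 51.8, 53.4, 56.1 and 59.1. By gene its median fold percentile was 55.7 and 65.1 with sgMETTL1 and 65.7 and 61.1 with sgNS, on the weak side in every list. PSMB2, PSMD12 and MRPL19 gave 17.1 to 29.8% of the members' peaks, and all of the members' peaks of 1000 bases or more (3 and 1 with sgMETTL1, 5 and 3 with sgNS). Without these 3 genes, left out after their values were seen, the median width was 210, 180, 239.5 and 222 bases.

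**Figure D4:**
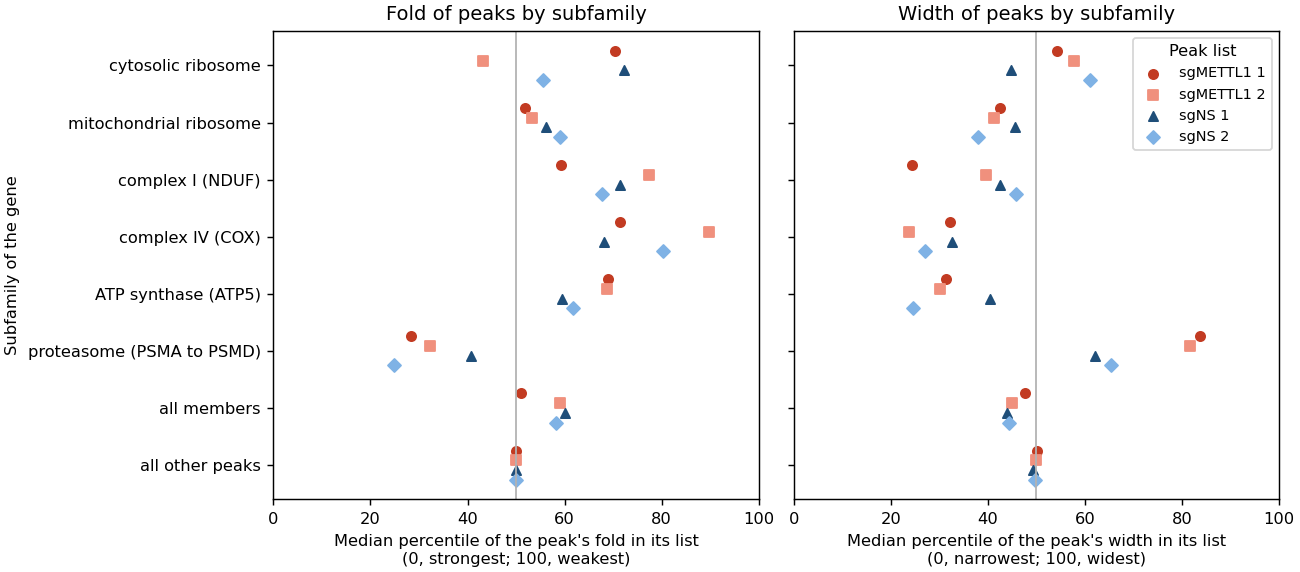
Median percentile of the peaks' fold (left, 0 the strongest) and width (right, 0 the narrowest) within each list, by subfamily, for all 47 genes and for all other peaks, with 1 point for each list; complex III, with 1 peak a list, is left out. The proteasome stands left of the middle for fold and right of it for width in every list, counted over peaks, and complexes I and IV stand on the weak and narrow side.

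The members' peaks lay as close to the 3′ end of the gene as others did, in bases, but farther from it as a share of the gene. The median distance from the centre of the peak to the end was 1675 and 1461 bases with sgMETTL1 and 1371 and 1512 bases with sgNS, against 1653.5 to 1673 bases for other peaks. The last 10% of the gene's span held 42.1 and 49.0% of members' peaks with sgMETTL1 and 51.4 and 50% with sgNS, against 73.7 to 75% of the others. The genes with a member's peak had a median span of 13909.5 to 15424 bases, against 45564 to 45872 bases for other listed genes, so the same distance in bases is a larger share of a member. Only 1 and 1 of the members' peaks with sgMETTL1 and 3 and 2 with sgNS lay in the first 50% of the gene.

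Members' peaks were found again in the second replicate about as often as others. With sgMETTL1, 42 of 57 peaks of replicate 1 shared at least 1 base with a peak of replicate 2 (73.7%, 95% exact Clopper-Pearson interval 60.3 to 84.5), and 42 of 51 in the other direction (82.4%, 69.1 to 91.6). With sgNS these were 55 of 70 (78.6%, 67.1 to 87.5) and 59 of 66 (89.4%, 79.4 to 95.6). The other peaks stood at 73.4 and 77.9% with sgMETTL1 and 78.8 and 83.5% with sgNS, each inside the members' interval. The intervals cover counting error only, and peaks of 1 gene are not independent.

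The design sets knockout against control cells, which asks what QKI7 holds without METTL1. Between 32 and 33 members were listed with sgMETTL1 and 40 to 43 with sgNS, and over all genes the lists with sgMETTL1 were also the shorter ones (5091 and 4981 genes, against 5570 and 5359). Of the 47, 27 were in all 4 lists (57.4%), against 63.7% of all genes. A peak with sgNS in both replicates and with sgMETTL1 in none was held by 4 members, RPL22, RPL37, MRPL16 and ATP5L (8.51%, against 4.63% of all genes). The reverse was held by 0 members, against 1.52% of all genes. A further 6 members were missing from 1 sgMETTL1 list (MRPL47, MRPS16, MRPS36, NDUFC2, ATP5G3 and PSMC2), and 2 from 1 sgNS list (RPL27A and UQCRB). Of the 8 named in 1 list alone (17.0%, against 15.5% of all genes), 7 were named with sgNS.

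The 4 members without a peak in the sgMETTL1 lists had weak peaks with sgNS. Their folds there were 1.53 to 3.6 and their -log10 p 2.79 to 14.1, and the best ranked of them, ATP5L in replicate 1 of sgNS, stood at percentile 77.5 of the genes of that list. The count depended on how many peaks were used. Among the 9388 peaks of each list with the smallest p, 2 members were in this class, RPL22 and ATP5G3, against 3.29% of the genes there. Matched by overlapping peaks in place of names, 7 of 84 member sites were in it (8.33%, against 7.42% of all sites), in RPL22, RPL37, MRPL16, MRPS35, ATP5G3, ATP5L and PSMC2. The reverse class held 1 site, that of RPL27A (1.19%, against 1.21%). An exact test has p = 0.33 as its smallest value with 2 lists for each guide, so these counts carry no test.

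Sites shared by all 4 lists were common among the members. Of the 84 member sites, 37 were in all 4 lists (44.0%, against 41.3% of all sites), and each of the 27 genes of all 4 lists had at least 1 of them, against 96.2% of the other genes of all 4 lists. Each of these 27 genes thus had a place common to the guides. The comparison of strength that follows takes a gene's strongest peak in each list, wherever it lies. For genes such as MRPL19 and COX20 that peak lay at different sites in different lists.

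The strength at the 27 genes was compared after ranking every gene by its best fold among the 4150 genes of all 4 lists, turned into a normal score in each list, with limma over all 4150 genes and Benjamini-Hochberg adjustment. No member passed an FDR of 5%, and limma called 0 of the 4150 genes (0%). At an unadjusted p under 0.05 there were 0 members, against 408 of all genes (9.83%), of which 196 were lower (4.72%) and 212 higher (5.11%) with sgMETTL1. The smallest adjusted p of a member was 0.531, for MRPL19, whose score was 0.50 higher with sgMETTL1 (SE 0.21, unadjusted p = 0.069 by limma, both lists above both sgNS lists). The next were ATP5S with a difference of -0.44 (SE 0.20, unadjusted p = 0.0786 by limma) and NDUFB5 with 0.46 (SE 0.21, unadjusted p = 0.0805 by limma). NDUFA5 had the widest difference, -1.16 with an SE of 0.54, which rested on 1 list: without replicate 1 of sgNS it was -0.43. The difference of MRPS30, -0.59 with all lists, was then -1.34, and without replicate 2 of sgNS it was 0.16.

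Differences of the members went both ways. The score was lower with sgMETTL1 in 10 members and higher in 17, with a median difference of 0.09, and over all 4150 genes 52.2% were lower and the median was -0.02. On log2 folds, which are not known to share a scale between lists, 17 members were lower and 10 higher, with a median of -0.13 against -0.24 over all genes, and limma again called 0. Both folds with sgMETTL1 lay under both with sgNS in 8 members (29.6%, against 37.7% of all genes) and above in 2 (7.41%, against 10.4%). Both sgMETTL1 scores lay under both sgNS scores in 5 members (ATP5S, MRPL30, MRPS22, NDUFA5 and RPL18), 18.5% against 22.7% of all genes. They lay above in 7 members (MRPL19, MRPS35, NDUFB5, NDUFS1, PSMD4, PSMD5 and RPL17-C18orf32), 25.9% against 20.0% of all genes. For PSMB2 the difference was 0.22 (SE 0.33) and for PSMD12 -0.15 (SE 0.20), each smaller than its SE, and for RPL18 it was -0.26 (SE 0.18).

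**Figure D5:**
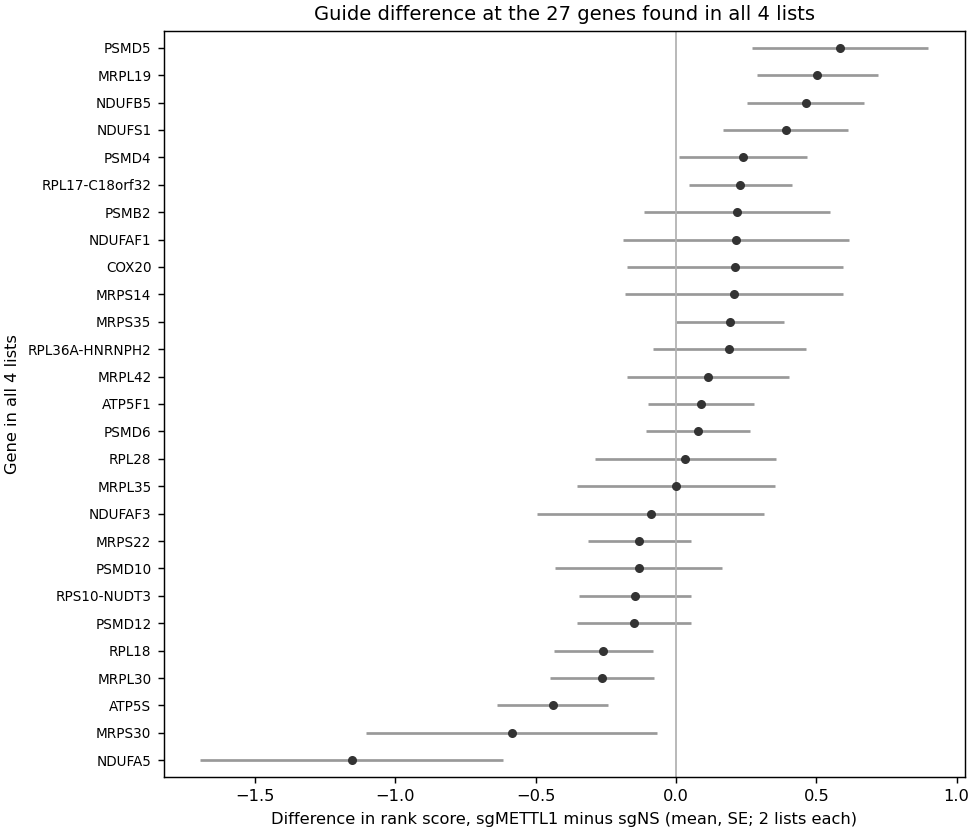
Difference in rank score, sgMETTL1 minus sgNS (horizontal axis, points with SE from limma, 2 lists for each guide), for the 27 genes of all 4 lists, from the highest to the lowest. The points run from 0.59 (PSMD5) to -1.16 (NDUFA5), and none passed an FDR of 5%.

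Other genes of the same pathways were taken from lists of this work, without a test. Of 22 further proteasome genes, 11 were listed and 7 were in all 4 lists, among them UCHL5, a deubiquitinase of the proteasome (18.3-fold and 16.7-fold with sgMETTL1, 45.1-fold and 10.9-fold with sgNS). Of 30 genes of ribosome production 16 were listed and 13 were in all 4 lists, led by UTP15, a factor of early ribosomal RNA processing, at 38.0-fold and 30.1-fold with sgMETTL1 and 78.0-fold and 43.2-fold with sgNS. LARP1, which binds the pyrimidine tract, stood at 6.60-fold and 10.7-fold with sgMETTL1 and 5.26-fold and 6.34-fold with sgNS. In this list POLR1B and RRP1B, named after their values were seen, had peaks in both sgNS lists only. Their folds there were 3.03 and 3.27 (POLR1B) and 1.83 and 1.66 (RRP1B). They were 2 of the 16 listed genes, and over all listed genes 4.63% were in this class.

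Of 25 genes of mitochondrial translation and transcription, 12 were listed and 6 were in all 4 lists. TFAM, which packages and transcribes mitochondrial DNA, stood at 57.0-fold and 73.2-fold with sgMETTL1 and 77.2-fold and 55.2-fold with sgNS. MTFMT, the enzyme that formylates the initiator tRNA of mitochondria, had no peak with sgMETTL1 and stood at 64.8-fold and 61.3-fold with sgNS, and MRRF, a ribosome recycling factor named after its values were seen, was also listed in both sgNS lists only. Of 30 respiratory chain genes outside the name rule 7 were listed and 2 were in all 4 lists, ATPIF1 and ATPAF1, the second named after its values were seen. ATPIF1, the inhibitor of ATP synthase that is now named ATP5IF1, stood at 24.1-fold and 24.8-fold with sgMETTL1 and 31.6-fold and 27.4-fold with sgNS, above every gene listed under an ATP5 name. LRPPRC, also named after its values were seen, had peaks in both sgNS lists only. This class held 2 of the 12 listed genes of mitochondrial translation and transcription, 1 of these 7 and 0 of the 11 further proteasome genes. It held 4.63% of all listed genes, and the difference was not tested.

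Of 13 transcriptional regulators of these genes, 8 were listed and 6 were in all 4 lists. YY1 stood at 17.9-fold and 15.6-fold with sgMETTL1 and 22.1-fold and 23.8-fold with sgNS, and PPARGC1A, the coactivator of mitochondrial biogenesis, at 16.8-fold and 14.9-fold with sgMETTL1 and 24.4-fold and 18.3-fold with sgNS. Of the 10 S6 kinase genes that the rule leaves out, 3 were listed, all in all 4 lists. RPS6KB1, the kinase of ribosomal protein S6, stood at 8.72-fold and 9.02-fold with sgMETTL1 against 20.4-fold and 38.0-fold with sgNS. The listed shares of these lists, 23.3% for the respiratory chain, 30.0% for the S6 kinases, 48.0% for mitochondrial translation, 50% for the proteasome, 53.3% for ribosome production and 61.5% for the regulators, compare with 32.3% of all protein-coding genes and 14.8% of the genes of the name rule, and were not tested.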

How the data were processed

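RNA from 8 samples was used as 4 pairs of an IP and an input sample, which per the labels come from HepG2 cells with sgMETTL1 or sgNS. The authors deposited 1 peak list for each pair. Per the submitters' processing notes, STAR and GRCh38 were used; no peak caller is named in the sources used here. The authors' fold is a ratio of IP over input, their p-value is per peak, and log10 p and FDR columns were handled as a score. No reads are listed, so depth is unknown, and how lists were scaled to each other is not given: folds were ranked within each list (percentiles, or normal scores) before guides were compared. Lists differ in length, which can change which genes are listed.

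Widths are summed exon blocks. Peaks sharing at least 1 base on 1 strand formed a site. Lists were compared with limma 3.58.1 (R 4.3.3), without a replicate block, over the 4150 genes of all 4 lists. Same-numbered lists did not deviate together (correlation -0.001533 across genes). This cannot show whether same-numbered samples were handled as pairs. Tables were made with Python 3.11.15, pandas 2.3.3 and scipy 1.17.1. The fit and the overlap were tested on simulated data. Names and sequences are from RefSeq (GRCh38.p14). Members and lists were chosen with earlier results of these data known. Values in each list are given for members in all 4 lists, for those in both lists of 1 guide alone, for the 4 best ranked of each subfamily, and for the 3 nearest to an unadjusted p of 0.05. Of other pathway lists, at most 4 genes with the best mean rank are named, beside those said to be chosen later. The planned motif count was not run, because peak sequences were not used here.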

Additional observations from a re-analysis of the deposited data

How the results depend on the processing

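Of the main results, 41 values under an alternative stayed within the spread or within 1.5 times the count, and 19 moved; the cause was not tested unless given. The count of members missing from the sgMETTL1 lists but in both sgNS lists, 4, was 2 among the 9388 peaks with the smallest p in every list and 7 by overlap of peaks, and 7 to 8 with 1 list left out, where fewer lists have to match and the share of all genes was 8.16 to 10.2% in place of 4.63%. The reverse count, 0, was 1 by overlap and 0 to 2 with 1 list left out, where it was 2.63 to 5.29% of all genes in place of 1.52%. The width percentile, 45.3, was 43.3 with introns included, 36.3 for the strongest peak of each gene and 39.9 without PSMB2, PSMD12 and MRPL19. The fold percentile, 57.1, was 69.3 for the strongest peak and 61.6 without those 3 genes, a setting chosen after seeing the data, as were leaving out read-through loci and sites in place of genes. The number of members with a lower score with sgMETTL1, 10, was 17 on log2 folds, and 10 to 16 with 1 list left out, 16 without replicate 1 of sgNS. Overlap between replicates at 50% reciprocal was 68.6% (sgMETTL1 replicate 2), 64.3% (sgNS replicate 1) and 68.2% (sgNS replicate 2). With the replicate number as a block, 0 members were called by limma, with 10 lower and a smallest adjusted p of 0.572, and 380 of all genes had an unadjusted p under 0.05; the block changed no call. The difference of PSMB2, 0.22, changed sign without replicate 1 of sgNS, with a range of -0.19 to 0.62 over the lists left out, and it passed no threshold in any of these fits. The difference of MRPS30, -0.59 with all lists, was -1.34 without replicate 1 of sgNS and changed sign, to 0.16, without replicate 2 of sgNS. MRPL19, ATP5S, NDUFB5, NDUFA5, PSMD5, PSMD12 and RPL18 kept their sign under these alternatives. With 1 list left out NDUFA5 ran from -1.88 to -0.43, PSMD5 from 0.19 to 0.98, PSMD12 from -0.29 to -0.02 and MRPL19 from 0.32 to 0.69. At MRPL19's second site of all 4 lists the difference was -0.08. Depth is unknown, so how far a missing peak is a lack of reads cannot be read from the lists.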
